A study of Mus musculus with 12 samples.

Results

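Lungs labelled OVA were compared with lungs labelled Control. By these names the former came from mice sensitized to and challenged with ovalbumin (OVA), the latter from mice given phosphate-buffered saline (PBS) alone. The name OVA carries a doubt that is given below. The comparison took 6 of the 12 arrays of the series, the 3 titled OVA and the 3 titled Control, each under the name in its title. Of 45101 probe sets, each a group of short probes that reads 1 transcript, 22498 were tested. These were the probe sets that reached 4.93 on the log2 scale, the median of all values, in every array of 1 or both groups. They covered 11327 genes, each represented by its probe set with the highest mean.

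RNA came from whole lung of male A/J mice of 8 to 10 weeks, on day 4 after the time of particle exposure. By the labels, mice of the OVA group received 0.4 mg/kg ovalbumin intraperitoneally on day 0 and 30 mg/kg into the trachea on day 14. Control mice received PBS. In the other groups, also by the labels, PM mice aspirated 50 µl of a suspension of ambient particulate matter (PM) at 10 mg/ml. OVA/PM mice received ovalbumin and particles, and each of the 4 groups had 3 arrays. By the study's methods each group's RNA was that of 3 animals, and no label ties an array to an animal, so p-values measure the spread between arrays.

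The names OVA and PM carry a doubt. Ratios of linear group means formed with these names exchanged equalled 28 of 28 folds in print for 14 probe sets of these samples, and 4 of 28 as labelled. Those 4 are the folds of Rgs9 and Sema7a, printed alike for OVA and PM, which match under either naming. The other folds matched only with the names exchanged. A free-text field that is the same for all 12 arrays calls each animal a control. With OVA and PM exchanged, 16 probe sets passed the test below in place of 4326, and the names below are those of the labels. The labelled tissue carried its defining genes, with surfactant genes Sftpa1, Sftpb and Sftpc among those tested in every array. The ratio of 3′ to 5′ probes of Gapdh, a measure of RNA integrity, ran from -0.37 to -0.18 (log2) over the Control arrays and from -0.27 to -0.24 over those labelled OVA.

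In this mouse model of asthma, inhaled ovalbumin meets T cells that were primed by the injected dose. Type 2 T cells then release Il4, Il5 and Il13, which draw eosinophils into the airway wall and turn airway epithelium towards mucus-secreting goblet cells. Macrophages that clear protein, dying cells and lipid from the alveoli, interferon-driven defence genes and dividing leukocytes are also part of the lung's response to an inhaled insult. Healthy lung RNA is dominated by alveolar epithelium and by the endothelium of the capillaries.

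Far more genes changed by a large step upward than downward. A gene was called where the adjusted p from limma lay under 0.05. That held for 4326 probe sets (19.2% of those tested), 1953 higher (8.68%) and 2373 lower (10.5%) in the arrays labelled OVA. By gene, 1277 were higher (11.3%) and 864 lower (7.63%), and 578 were called with more than a 2-fold change (5.1%), of which 517 were higher (4.56%) and 61 lower (0.539%). The median difference of the genes called higher was 0.84 (log2) and of those called lower -0.57, while over all genes tested it was 0.0. More than 8-fold, 88 genes were higher and 1 was lower, Ces1g. In all 2141 genes called (18.9%), the 3 arrays labelled OVA lay on 1 side of the 3 Control arrays. Among all genes tested, 25.3% lay wholly above and 21.7% wholly below. Counts within the gene lists below are to be read against these shares and those called higher (11.3%) and lower (7.63%).

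**Figure D1:**
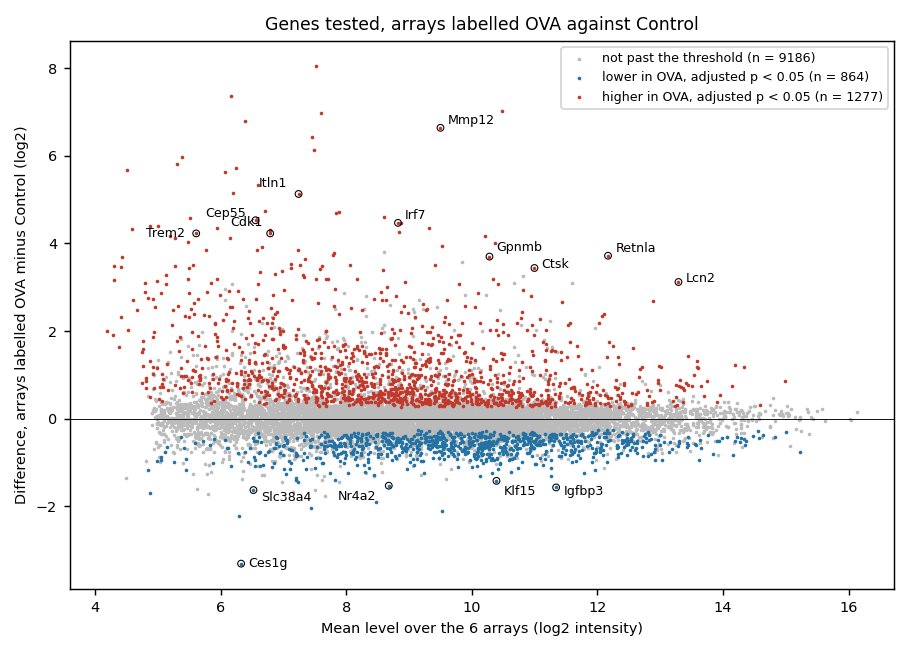
Each point is 1 of the 11327 genes tested, with its mean log2 intensity over the 6 arrays on the x axis and the log2 difference of the arrays labelled OVA minus Control on the y axis. Many of the 1277 genes called higher (red) lie far above 0, while 803 of the 864 called lower (blue) changed by less than 2-fold.

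The array OVA 2 stood nearer to Control than OVA 1 and OVA 3 did. Of the 1277 genes called higher, OVA 2 was the array labelled OVA nearest to Control in 935, OVA 3 in 225 and OVA 1 in 117. Over these genes the mean level was 9.54, 9.09 and 9.40 (log2) in OVA 1 to 3, against 8.04, 8.18 and 8.21 in Control 1 to 3. The genes called lower showed the same order, with OVA 2 nearest in 721 of 864. Leaving out OVA 2 left 5284 probe sets called, while leaving out OVA 1 left 982, OVA 3 407, Control 1 1291, Control 2 636 and Control 3 2579. A core of 146 genes higher and 16 lower was called in all 6 fits that left out 1 array, 124 and 7 of them more than 2-fold.

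**Figure D2:**
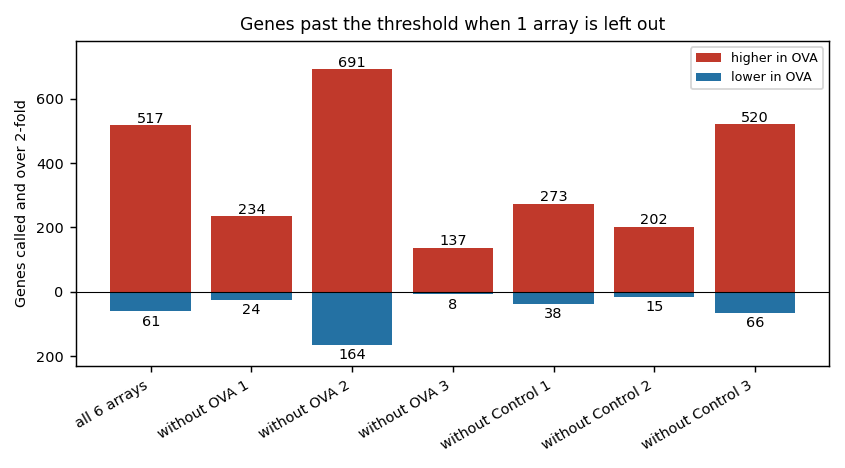
Bars give the number of genes called with more than a 2-fold change, higher (red, upward) and lower (blue, downward) in the arrays labelled OVA, with all 6 arrays and with each array left out. The counts fell to 137 higher and 8 lower without OVA 3, and reached 691 and 164 without OVA 2.

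Genes of cell division rose together, and this was the list in which the largest share of members was called. All 19 mitosis genes tested were higher, with a median difference of 3.28 (log2). The median was 2.5 when Control levels under the filter level were set to it. Some members, such as Cdk1 and Aurka, entered the test only through the arrays labelled OVA, so that only a rise could bring them in. With no filter, 21 of 21 members were called higher, with a median of 3.24. Cdk1, the kinase that drives entry into mitosis, was at 4.68, 4.71 and 4.63 (log2) in Control 1 to 3 and at 9.50, 8.16 and 9.05 in OVA 1 to 3. All 3 Control arrays lay under the filter level, so the rise was at least 15.7-fold (log2 difference 4.23, SE 0.33, adjusted p = 0.00508 from limma). Top2a, the topoisomerase that untangles DNA before chromosomes part, was at 6.44, 6.18 and 6.32 in Control and at 10.07, 9.45 and 9.94 in the arrays labelled OVA. Every array labelled OVA exceeded every Control array by more than 3 (log2), a difference of 3.51 (SE 0.18, adjusted p = 0.00228 from limma). The promoters of both genes are shown because they hold sequences known to time transcription to cell division. Both stretches are from RefSeq (GRCm38.p6), 5′ to 3′, and end 1 base before the start of transcription. Cdk1 lies at chr10:69352913-69353012 (minus strand) and Top2a at chr11:99024190-99024289 (minus strand), and capitals mark the cell-cycle homology region TTTGAA and the CCAAT box on either strand, which do not overlap here.
Cdk1: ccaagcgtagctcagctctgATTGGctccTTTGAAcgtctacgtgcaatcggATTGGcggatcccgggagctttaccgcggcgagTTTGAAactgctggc
Top2a: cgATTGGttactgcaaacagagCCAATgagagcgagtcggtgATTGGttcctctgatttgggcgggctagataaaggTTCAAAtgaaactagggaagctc
In the 250 bases upstream of the start, TTTGAA was present on either strand in 8 of the 16 mitosis genes with a promoter entry and CCAAT in 14. Over all 32851 promoters of the table the shares were 16% and 33.8%. Among all genes tested with a promoter entry, TTTGAA stood in 12.7%, in 17% of those called higher and in 11.2% of those called lower. CCAAT stood in 39.8%, 39.4% and 37.6%.

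Other members of the mitotic machinery moved by similar amounts. Cep55, which acts in the final separation of daughter cells, was at 3.82, 5.02 and 4.03 in Control and at 9.28, 8.09 and 9.09 in the arrays labelled OVA (difference 4.53, SE 0.43, adjusted p = 0.0073 from limma). Aurka, a kinase of the spindle poles, went from 2.55, 2.44 and 2.27 to 7.27, 6.19 and 6.79, at least 3.54-fold higher (SE 0.27 on the log2 scale, adjusted p = 0.00351 from limma). The proliferation marker Mki67 rose from 6.91, 7.25 and 7.16 to 10.10, 9.70 and 10.19, a difference of 2.89 (SE 0.16, adjusted p = 0.00351 from limma). The groups of these genes lay far apart, and OVA 2 was the lowest array labelled OVA in each. The smallest rise of the list was that of Cenpa, the histone of centromeres, at 1.66 (SE 0.18).

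Genes of DNA synthesis rose too. Of 17 tested, 14 were higher and 0 lower, with a median of 1.07. Rrm2, the inducible subunit of the enzyme that makes deoxynucleotides, went from 7.59, 7.43 and 7.13 to 10.42, 9.73 and 10.44 (difference 2.81, SE 0.23, adjusted p = 0.0057 from limma). Tk1, which salvages thymidine, was at least 5.5-fold higher. The subunits of the replicative helicase moved less: Mcm5 by 1.62 (SE 0.17), Mcm3 by 1.15 (SE 0.13), Mcm6 by 1.06 (SE 0.11) and Mcm4 by 0.60 (SE 0.11). Pcna, the sliding clamp of DNA polymerase, rose by 0.61 (SE 0.13). With 1 array left out, between 15 and 20 mitosis genes and between 6 and 14 DNA replication genes were called, the fewest without OVA 3. In RNA of whole lung, more cells of a type and more RNA per cell cannot be told apart.

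A set of macrophage genes for taking up and digesting debris rose with little spread between arrays. Trem2, a lipid-sensing receptor of phagocytes, was under the filter level in all 3 Control arrays, at 3.33, 4.06 and 3.09, and at 8.01, 7.25 and 7.92 in the arrays labelled OVA, at least 6.94-fold higher (difference 4.23, SE 0.31, adjusted p = 0.00485 from limma). Gpnmb, a glycoprotein of lysosome-rich macrophages, went from 8.71, 8.58 and 8.00 to 12.02, 12.01 and 12.36 (difference 3.70, SE 0.21, adjusted p = 0.00351 from limma). Ctsk, a cathepsin that cuts collagen and elastin, went from 9.07, 9.49 and 9.27 to 12.86, 12.46 and 12.83 (difference 3.44, SE 0.16, adjusted p = 0.00166 from limma). In these 3 genes the arrays of a group lay far closer to each other than to any array of the other group. Marco, a scavenger receptor of alveolar macrophages, rose by 2.72 (SE 0.26) and Itgax, the CD11c integrin, by 2.03 (SE 0.17).

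Of 18 cathepsins and lysosomal enzymes tested, 15 were higher and 0 lower, with a median of 0.81. The groups did not overlap in any of the 18. Over all genes tested, 11.3% were called higher and 25.3% lay wholly above Control. Apart from Ctsk and Cd68, the called members rose by 1.63 (Atp6v0d2, a subunit of the proton pump, SE 0.23) or less. Ctss, which trims the invariant chain of antigen-presenting cells, went from 13.48, 13.68 and 13.57 to 14.86, 14.59 and 14.97 (difference 1.23, SE 0.12, adjusted p = 0.00763 from limma). Ctsd rose by 0.89 (SE 0.09), Ctsb by 0.85 (SE 0.11), the lipase Lipa by 0.78 (SE 0.09) and the cholesterol carrier Npc2 by 0.31 (SE 0.07). The membrane proteins Lamp1 and Lamp2, which line every lysosome, differed by 0.11 and 0.17 (adjusted p = 0.26 and 0.162 from limma).

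Scavenger and lipid-handling genes did not all move the same way. Of 15 tested, 8 were higher and 1 lower, Cd36, a fatty acid transporter that capillary endothelium also makes, at 15.08, 15.02 and 15.04 in Control and 14.58, 14.81 and 14.48 in the arrays labelled OVA (difference -0.42, SE 0.10, adjusted p = 0.041 from limma). Msr1 rose by 3.2 (SE 0.61), Olr1 by 1.67 (SE 0.25) and Lgals3 by 1.31 (SE 0.15), while Apoe and Abca1, which export cholesterol, differed by 0.23 and -0.09 (adjusted p = 0.194 and 0.722 from limma). Of 11 alveolar macrophage markers 3 were higher, Marco, Ctsk and Itgax, and 1 lower, Fabp1, a fatty acid carrier. Among the 7 that did not pass, Pparg differed by 0.43 and Siglecf by 0.26 (adjusted p = 0.19 and 0.356 from limma). Broad markers of monocytes and macrophages were higher in 7 of 16, with Cd68 up by 2.27 (SE 0.28), Aif1 by 2.70 (SE 0.53) and Adgre1, a classical surface antigen of macrophages, by 1.25 (SE 0.25). The mean of that list ran from 9.24 to 9.78 over the Control arrays and from 10.49 to 11.24 over those labelled OVA, and its part in the rises above was not tested. With 1 array left out, 4 to 15 lysosomal genes and 3 to 8 scavenger genes were called higher, the fewest without OVA 3.

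**Figure D3:**
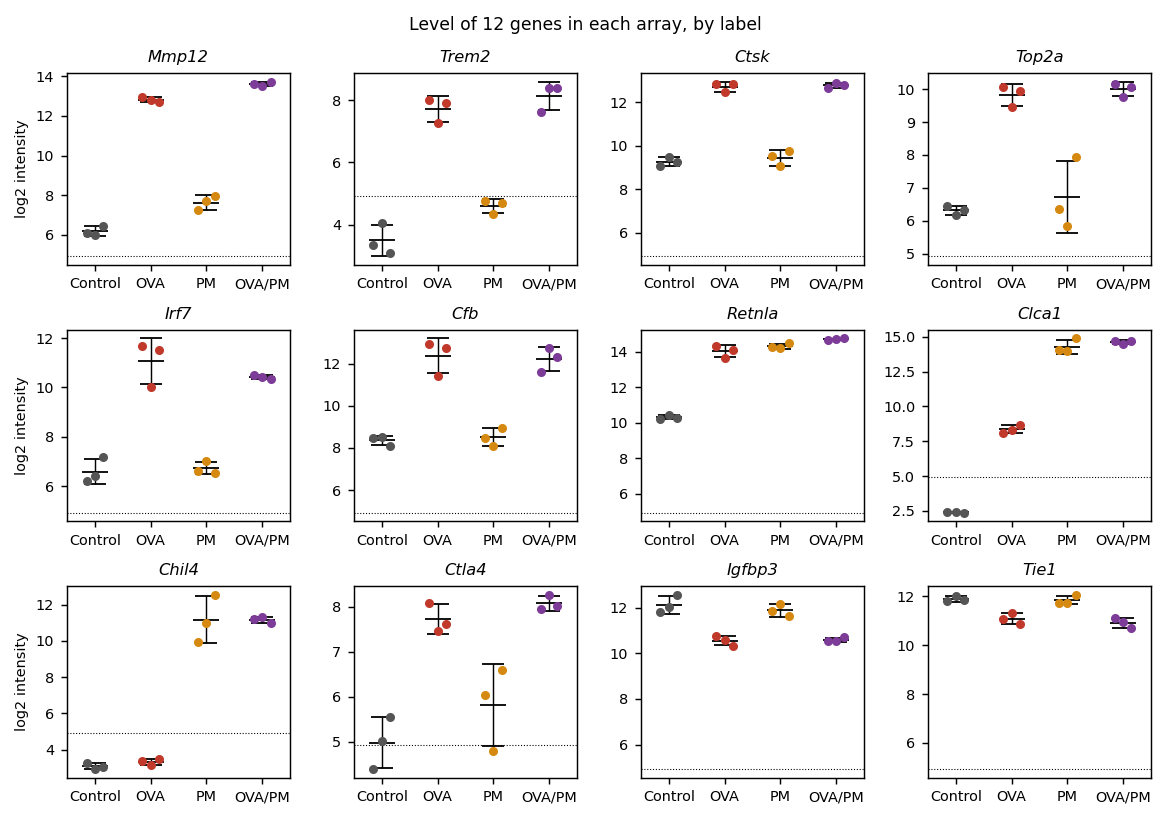
Level of 12 genes (log2 intensity, y axis) in each array by label, with long bars for the mean, short bars for the SD (n = 3) and a dotted line at the filter level of 4.93. Mmp12, Trem2, Ctsk, Top2a, Irf7 and Cfb stand high in the arrays labelled OVA and OVA/PM, Clca1 and Chil4 stand highest in those labelled PM and OVA/PM, and Igfbp3 and Tie1 are lower in those labelled OVA and OVA/PM.

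Interferon-induced genes rose broadly but unevenly. Of 23 tested, 19 were higher and 0 lower, with a median of 2.19, and all 23 had a positive difference. With no filter, 9 of 24 were called higher. Irf7, the regulator that amplifies type I interferon production, was at 6.19, 6.41 and 7.16 in Control and at 11.68, 10.00 and 11.50 in the arrays labelled OVA (difference 4.47, SE 0.50, adjusted p = 0.00909 from limma). Ifit1, which binds viral RNA lacking a host cap, went from 7.25, 7.68 and 7.72 to 12.17, 10.33 and 11.97 (difference 3.94, SE 0.49, adjusted p = 0.0111 from limma). Oas1a, a sensor of double-stranded RNA, went from 6.07, 6.64 and 7.41 to 11.53, 9.91 and 11.46 (difference 4.26, SE 0.54, adjusted p = 0.0112 from limma). In each of the 3 genes OVA 2 lay more than 1 (log2) below the other arrays labelled OVA and still above every Control array. The promoters of Ifit1 and Oas1a show the element that interferon-activated factors bind, from RefSeq (GRCm38.p6), 5′ to 3′. Ifit1 is given at chr19:34640759-34640858 (plus strand, ending 31 bases before the start) and Oas1a at chr5:120907526-120907625 (minus strand, ending 1 base before it), and capitals mark GAAA, any 2 bases and GAAA again, on either strand, the core of the interferon-stimulated response element, of which 2 copies overlap in Oas1a.
Ifit1: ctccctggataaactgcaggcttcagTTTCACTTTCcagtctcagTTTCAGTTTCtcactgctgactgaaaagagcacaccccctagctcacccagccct
Oas1a: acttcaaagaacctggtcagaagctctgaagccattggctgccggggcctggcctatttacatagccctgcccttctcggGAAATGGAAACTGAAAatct
Of 17 genes of the list with a promoter entry, 10 held this element in the 250 bases upstream on either strand, 8 of them among the 13 called. Over all promoters it stood in 2.98%. Among genes tested it stood in 4.78% of those called higher (50 of 1045), 2.68% of those called lower and 3.02% of the rest.

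Members of the interferon list rose by very different amounts. Mx1, an antiviral GTPase, and Oasl1, a relative of the Oas sensors, were at least 14.3-fold and 7.34-fold higher. Ifi44l rose from 4.72, 4.75 and 6.99 to 10.93, 8.95 and 10.67 (difference 4.69, SE 0.79, adjusted p = 0.0189 from limma). Ifit2 and Ifit3, relatives of Ifit1, rose by 2.19 (SE 0.46) and 2.13 (SE 0.37). The interferon-gamma-induced GTPase Irgm1 was at 8.15, 8.47 and 9.05 in Control against 11.43, 9.65 and 11.10 (difference 2.17, SE 0.50, adjusted p = 0.0346 from limma). Its relative Gbp3 rose by 1.98 (SE 0.46) and Gbp2 differed by 1.61 (adjusted p = 0.0618 from limma). Transcripts of the interferons themselves were not among the genes tested, with Ifnb1 at 2.05 to 2.14 and Ifng at 2.35 to 2.79 over all 6 arrays. The calls depended on single arrays of both groups. The list had 1 call without OVA 3, 8 without OVA 1 and 24 without OVA 2. It had 6, 3 and 12 calls without Control 1, Control 2 and Control 3.

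Antigen presentation followed with smaller steps. Of 16 genes tested 7 were higher and 0 lower, with a median of 0.84 and a positive difference in all 16. The peptide transporter Tap1 rose by 2.05 (SE 0.53), and the immunoproteasome subunits Psmb8 and Psmb9 by 1.41 (SE 0.31) and 1.33 (SE 0.35). The class II genes H2-Eb1 and H2-Aa rose by 0.95 (SE 0.21) and 0.76 (SE 0.17), while the class I genes H2-K1 and H2-D1 and their partner B2m differed by 0.38, 0.29 and 0.32 (adjusted p = 0.0736, 0.067 and 0.0841 from limma). In this list 0 genes were called without OVA 1, OVA 3, Control 1 or Control 2, and 0 of 17 with no filter.

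Many receptors for antibodies and for microbial structures were higher. Of 7 Fc receptors 6 were higher, with a median of 2.14. Fcgr1, the high-affinity receptor for IgG, was at 5.05, 5.99 and 6.72 in Control and at 10.62, 8.21 and 10.27 in the arrays labelled OVA (difference 3.78, SE 0.73, adjusted p = 0.0244 from limma). Fcgr2b, the inhibitory receptor, rose by 2.55 (SE 0.38), and Fcer2a, the low-affinity IgE receptor CD23, went from 6.93, 7.68 and 8.13 to 9.83, 9.65 and 9.12 (difference 1.95, SE 0.34, adjusted p = 0.0198 from limma). Fcgrt, which recycles IgG through endothelium and epithelium, differed by 0.01 (adjusted p = 0.982 from limma). Fcgr1 split the arrays labelled OVA, with OVA 2 more than 2 below the others, while in Fcer2a OVA 2 stood with OVA 1.

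Of 14 pattern recognition receptors 9 were higher and 0 lower, with a median of 2.09. Among the C-type lectins of fungal recognition Clec4e rose most, by 6.44 (SE 1.16), then Clec4d by 3.5 (SE 0.71). Clec4n, with less spread, was at 8.47, 9.36 and 8.39 against 12.76, 11.11 and 11.90 (difference 3.18, SE 0.46, adjusted p = 0.0149 from limma), and Clec7a, the beta-glucan receptor dectin, rose by 2.38 (SE 0.35). Tlr2 and its partner Tlr1 rose by 2.18 (SE 0.40) and 1.99 (SE 0.51), and Cd14, the co-receptor for endotoxin, by 2.26 (SE 0.41). Tlr4 and Tlr3 differed by 0.45 and 0.33 (adjusted p = 0.0582 and 0.0928 from limma). Without OVA 3, 0 of the Fc receptors and 0 of the pattern recognition receptors were called. With no filter, 3 of 9 Fc receptors and 3 of 18 pattern recognition receptors were called higher.

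Several secreted defence proteins rose by large steps. Of 11 acute phase and antimicrobial genes 5 were higher, Saa3, Lcn2, Ltf, Orm1 and Reg3g, and 0 lower, with a median of 0.8. Cfb, factor B of the alternative complement pathway, was at 8.45, 8.52 and 8.10 in Control and at 12.93, 11.43 and 12.77 in the arrays labelled OVA (difference 4.02, SE 0.40, adjusted p = 0.00763 from limma). The receptor C3ar1 rose by 3.86 (SE 0.64), and the chains of C1q, made by macrophages, by 1.56 (C1qa, SE 0.27), 1.55 (C1qb, SE 0.26) and 1.73 (C1qc, SE 0.30). Of 14 complement genes 9 were higher and 0 lower, and with no filter 4 of 16 were called higher. Lcn2, an iron-binding protein of epithelium and neutrophils, went from 11.52, 11.75 and 11.93 to 15.36, 14.01 and 15.17 (difference 3.12, SE 0.36, adjusted p = 0.00992 from limma). It was called with each array left out, while 1 complement gene was called without OVA 1 and 1 without Control 2. The oxidase of phagocytes moved too, with Cybb, its catalytic subunit, up by 2.18 (SE 0.27) and Cyba by 1.17 (SE 0.16). In that list 7 of 15 genes were higher, and the glutathione enzymes Gclc and Gclm and Nqo1, known targets of Nrf2, differed by 0.18, 0.14 and 0.04 (adjusted p = 0.488, 0.481 and 0.893 from limma).

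Chemokines listed as attracting neutrophils spread widely within the arrays labelled OVA, and 3 of 6 tested were called higher. These were Cxcl2, Cxcl3 and Pf4, which rose by 0.99 (adjusted p = 0.0256 from limma). Cxcl2 and Cxcl3 entered the test only through the arrays labelled OVA, so that only a rise could bring them in. With no filter, 2 of 7 genes of the list were called higher. Pf4 is also on the list of red blood cells and platelets. Cxcl1 was at 6.58, 7.58 and 6.56 in Control and at 11.08, 7.74 and 10.34 in OVA 1 to 3, so that OVA 2 lay close to Control 2, and it did not pass (difference 2.81, SE 0.87, adjusted p = 0.0675 from limma). Cxcl2 was at 2.79, 5.56 and 3.98 against 12.25, 9.63 and 11.35, and Cxcl3 at 3.66, 3.18 and 3.61 against 12.36, 10.32 and 11.96. These genes are neighbours on chromosome 5 and share a promoter element, which is why their sequences are shown. The stretches are from RefSeq (GRCm38.p6), plus strand, 5′ to 3′: Cxcl1 at chr5:90891129-90891228, Cxcl2 at chr5:90903776-90903875 and Cxcl3 at chr5:90785983-90786082. Capitals mark GGG, any 2 bases and TTTCC, on either strand, a form of the site that NF-kappaB binds.
Cxcl1: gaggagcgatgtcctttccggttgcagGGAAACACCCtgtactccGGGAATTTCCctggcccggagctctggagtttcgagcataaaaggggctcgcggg
Cxcl2: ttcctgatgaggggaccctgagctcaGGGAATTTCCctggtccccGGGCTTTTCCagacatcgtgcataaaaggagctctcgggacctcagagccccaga
Cxcl3: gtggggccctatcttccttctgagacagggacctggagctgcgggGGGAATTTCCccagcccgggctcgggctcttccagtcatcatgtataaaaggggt
The element stood in these 3 of 6 genes of the list that have a promoter entry, and in 1.41% of all promoters. Among genes tested it stood in 2.39% of those called higher, 0.894% of those called lower and 1.72% of the rest. Of 13 genes of NF-kappaB signalling and feedback 3 were higher, led by the kinase Ikbke at 2.0 (SE 0.31), while the inhibitor Nfkbia differed by -0.02 (adjusted p = 0.911 from limma).

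Chemokines for monocytes and eosinophils were called higher in 7 of 8 genes tested, against 11.3% of all genes tested. Some of these, among them Ccl3 and Ccl12, entered the test only through the arrays labelled OVA. With no filter, 6 of 13 were called higher. The count was 1 without OVA 3 or Control 2, 3 without OVA 1 or Control 1, 6 without Control 3 and 11 without OVA 2. Ccl8 was at 6.00, 6.49 and 6.38 in Control and at 11.08, 9.98 and 11.63 in the arrays labelled OVA (difference 4.6, SE 0.42, adjusted p = 0.00691 from limma). Ccl3 and Ccl12 were at least 18.1-fold and 4.82-fold higher. The eotaxins, which draw eosinophils, showed no such rise. Ccl11 was at 7.82, 8.20 and 8.81 in OVA 1 to 3 and at 8.03, 7.74 and 7.11 in Control, so the groups overlapped. Ccl24 lay at the floor in both groups. Several chemokines stayed out of the test because OVA 2 was under the filter level, among them Ccl2, at 9.37, 4.01 and 7.66 in OVA 1 to 3 and at 3.58 to 3.99 in Control. Tnf, the inflammatory cytokine, had the same shape, at 7.41, 3.92 and 6.32 against 2.2 to 2.25. In both genes OVA 1 was highest and OVA 2 lowest of the arrays labelled OVA. Of 10 chemokine receptors 0 passed with limma (4 at an unadjusted p under 0.05), with a median difference of 1.07 and 9 of the 10 positive.

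Among cytokines, the interleukin-1 receptor antagonist Il1rn went from 6.07, 7.07 and 6.81 to 12.22, 9.81 and 11.28 (difference 4.46, SE 0.62, adjusted p = 0.0137 from limma). Il33, an alarmin of epithelium and endothelium, rose by 1.0 (SE 0.24, adjusted p = 0.0388 from limma). Il6 and Il1b differed by 3.07 and 1.29 (adjusted p = 0.0808 and 0.394 from limma). Neutrophil markers went several ways. Cd177, a surface protein of neutrophils that is not on the list of neutrophil markers, was at 4.05, 4.63 and 7.91 in Control and at 11.04, 9.29 and 10.38 in the arrays labelled OVA (difference 4.71, SE 1.06, adjusted p = 0.0335 from limma). S100a8, the calprotectin subunit that neutrophils store, was at 11.69, 13.57 and 14.35 against 14.26, 10.75 and 12.25 (difference -0.78, adjusted p = 0.602 from limma). The groups overlapped in S100a8, where Control 3 was the highest array of the 6 and OVA 2 the lowest. Of the 9 listed neutrophil markers tested 1 was called, Ltf, at 3.07 (SE 0.53), a share near the 11.3% of all genes called higher. The list's mean ran from 8.12 to 9.90 over Control and from 8.5 to 11.16 over the arrays labelled OVA, and its part in the chemokine values was not tested.

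Type 2 cytokines were at the floor of the arrays. Il4, Il5 and Il13 lay between 1.95 and 2.88 in each of the 6 arrays, and of 5 related genes tested 0 passed with limma (1 at an unadjusted p under 0.05). The receptor chains Il4ra and Il13ra1 differed by 0.34 and 0.55 (adjusted p = 0.362 and 0.0795), and the transcription factors Gata3 and Stat6 by 0.01 each (adjusted p = 0.992 and 0.916 from limma). Eosinophil markers were as low. Epx, the eosinophil peroxidase, was at 1.98 to 2.03 in Control and at 2.02 to 2.05 in the arrays labelled OVA, and Prg2, the major basic protein, at 2.26 to 2.32 and 2.30 to 2.35. Of 10 eosinophil markers 1 passed the filter, Siglecf, which alveolar macrophages also carry.

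Products of mucous airway cells nevertheless rose. Of 11 goblet cell and mucus genes tested 7 were higher and 0 lower, with a median of 1.66. Some, such as Itln1, entered the test only through the arrays labelled OVA, so that only a rise could bring them in. With no filter, 7 of 16 were called higher, with a median of 1.38. Itln1, a lectin of goblet cells, was at 4.61, 4.67 and 4.75 in Control and at 9.93, 9.54 and 9.94 in the arrays labelled OVA, at least 29.4-fold higher (difference 5.13, SE 0.13, adjusted p = 1.15e-04 from limma). Tff2, a trefoil peptide that stabilizes mucus, rose from 5.85, 5.65 and 5.07 to 9.46, 8.98 and 9.05 (difference 3.64, SE 0.23, adjusted p = 0.00373 from limma). Agr2, which folds mucins in the endoplasmic reticulum, rose by 3.45 (SE 0.46), and the mucin Muc5b went from 9.31, 9.41 and 9.15 to 11.32, 10.11 and 10.59 (difference 1.38, SE 0.30, adjusted p = 0.0308 from limma). The other gel-forming mucin of airways, Muc5ac, was not tested, at 1.70, 2.34 and 2.12 in Control and 6.06, 4.07 and 5.18 in the arrays labelled OVA. Between 5 and 9 genes of this list were called with 1 array left out.

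Products of other secretory cells went several ways. Of 10 club cell genes 2 were higher and 1 lower, and of 6 chitinase-like and resistin-like genes 2 were higher and 1 lower. Scgb3a1, a secretoglobin of the upper airways, went from 12.69, 12.57 and 12.93 to 14.29, 14.10 and 14.05 (difference 1.42, SE 0.12, adjusted p = 0.00621 from limma), while Scgb1a1, the main product of club cells, differed by -0.03 (adjusted p = 0.793 from limma). Retnla, which macrophages and airway epithelium secrete in type 2 responses, went from 10.22, 10.44 and 10.26 to 14.34, 13.67 and 14.08 (difference 3.72, SE 0.18, adjusted p = 0.00188 from limma). The chitinase-like Chil1 rose by 1.16 (SE 0.16). Chia1, the acidic mammalian chitinase, fell from 10.62, 10.60 and 10.26 to 9.44, 10.05 and 9.56 (difference -0.81, SE 0.19, adjusted p = 0.0366 from limma), and Chil4 was not tested, with 2.94 to 3.25 in Control and 3.17 to 3.48 in the arrays labelled OVA.

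Some goblet and chitinase genes set the arrays labelled OVA apart from those labelled PM. In that comparison, which uses the same 3 arrays labelled OVA, 696 of 11331 genes were called (6.14%). Of these, 480 were higher (4.24%) and 216 lower (1.91%) in the arrays labelled OVA. In the list of goblet cell and mucus genes 3 of 12 were lower and 0 higher. Of 7 chitinase-like and resistin-like genes 2 were lower and 1 higher. Clca1, a secreted goblet cell protein, was at 8.10, 8.31 and 8.69 in the arrays labelled OVA and at 14.03, 13.95 and 14.88 in those labelled PM (difference -5.92, SE 0.28, adjusted p = 0.00308 from limma). Itln1 and Chia1 were lower in the arrays labelled OVA by fitted differences of -2.42 (SE 0.29) and -2.08 (SE 0.35). The groups did not overlap in any of the 3 genes. The levels in the arrays labelled PM of 2 genes that were at the floor here were far higher, with Chil4 at 9.96 to 12.53, and Rnase2a, an eosinophil-associated ribonuclease, at 9.07, 7.98 and 10.49 against 2.99, 3.03 and 3.29. For Retnla, Tff2 and Bpifb1, a secreted protein of upper airways, the difference from PM was -0.29, -0.69 and 0.18 (adjusted p = 0.318, 0.122 and 0.5 from limma), and for Ccl8 0.23 (adjusted p = 0.843 from limma).

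In other lists members were higher in the arrays labelled OVA than in those labelled PM. Called higher were 15 of 19 mitosis genes, 12 of 18 lysosomal genes, 12 of 23 interferon-induced genes and 9 of 15 T cell genes, and 0 of each lower. Gpnmb was at 7.83, 7.66 and 8.10 in the arrays labelled PM, lower by 4.27 (SE 0.15, adjusted p = 0.00112 from limma), and Ctsk and Marco differed by 3.27 (SE 0.21) and 3.30 (SE 0.20). Irf7 was at 6.61, 7.0 and 6.55 in the arrays labelled PM, a difference of 4.34 (SE 0.45, adjusted p = 0.0226 from limma). Top2a and Cdk1 were 3.10 (SE 0.54) and 3.6 (SE 0.61) higher (adjusted p = 0.0417 and 0.0407 from limma), with PM 3 above its neighbours at 7.94 and 6.57. For the interferon-gamma GTPases Irgm1 and Gbp3 the differences of 1.14 and 0.85 did not pass (adjusted p = 0.232 and 0.283 from limma), and PM 2 was high in Irgm1 at 10.49. This comparison was fragile, with 4 probe sets called without OVA 1, 6 without OVA 3 and 3587 without OVA 2, against 1165 with all arrays (5.2% of probe sets tested, 3.24% higher and 1.96% lower).

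**Figure D4:**
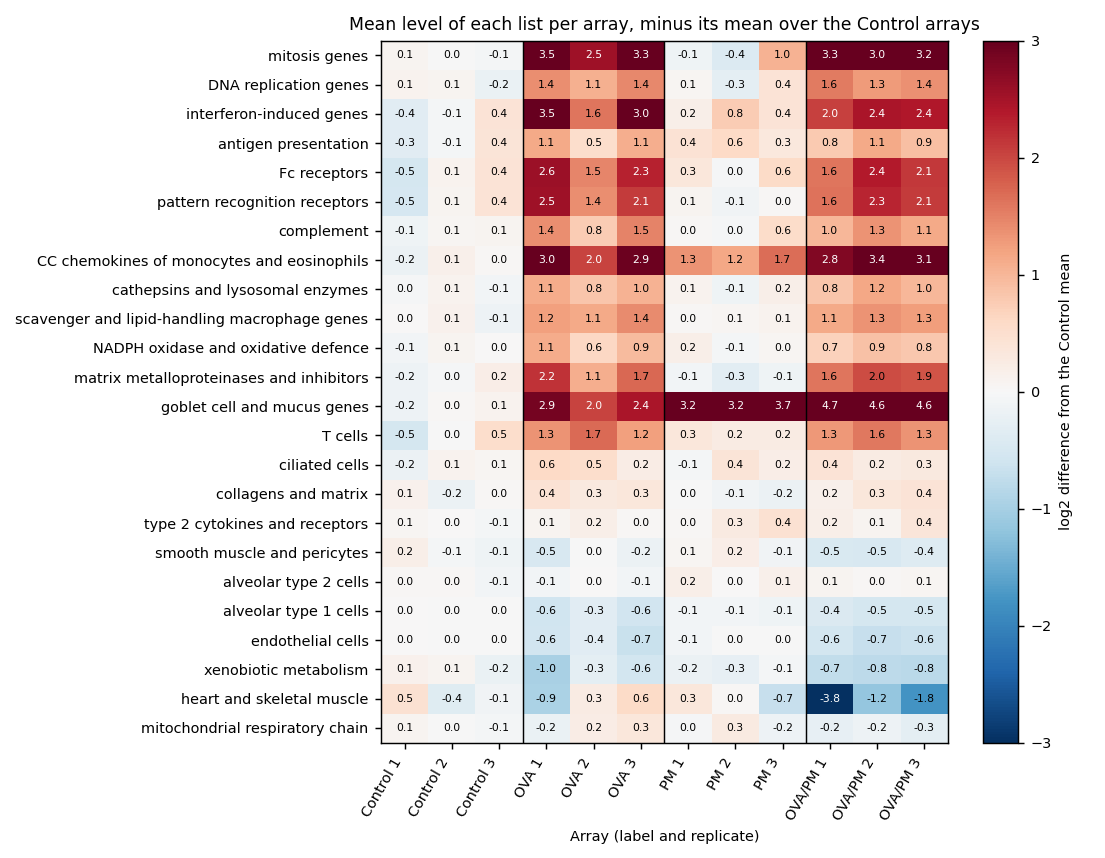
Mean level of each of 24 gene lists in each of the 12 arrays, given as the log2 difference from the mean over the 3 Control arrays, with colours that end at 3 and -3. The mean of the mitosis list was 5.0 to 5.13 in Control, 7.59 to 8.57 in the arrays labelled OVA and 4.64 to 6.10 in those labelled PM, and that of the goblet list 6.34 to 6.6, 8.51 to 9.37 and 9.67 to 10.24.

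Most T cell genes rose. Of 15 tested 10 were higher and 0 lower, with a median of 1.12. With no filter, 5 of 18 were called higher. Icos, a co-stimulatory receptor of activated T cells, was at 4.31, 4.37 and 5.37 in Control and at 7.73, 7.72 and 7.33 in the arrays labelled OVA (difference 2.91, SE 0.30, adjusted p = 0.00816 from limma). Ctla4, the inhibitory receptor of activated and regulatory T cells, went from 4.39, 5.01 and 5.54 to 8.09, 7.47 and 7.62 (difference 2.74, SE 0.32, adjusted p = 0.00967 from limma). Cd3d, a subunit of the T cell receptor complex, rose as well, at 7.35, 7.84 and 8.45 against 9.21, 9.71 and 9.24 (difference 1.5, SE 0.30, adjusted p = 0.0256 from limma). In Cd3d OVA 2 was the highest array labelled OVA, not the lowest, and Control 1 was the lowest of its group. The list's mean was 7.50, 7.87 and 7.4 in OVA 1 to 3 against 5.64, 6.15 and 6.69 in Control. Cd5, Lat and Cd8b1 rose by 2.15 (SE 0.37), 1.62 (SE 0.25) and 1.78 (SE 0.46).

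Other lymphocytes gave fewer calls. Of 7 natural killer genes 3 were higher, among them the granzyme Gzmb at 2.06 (SE 0.37), and of 13 B and plasma cell genes 1, the complement receptor Cr2 at 1.63 (SE 0.38). Immunoglobulin genes Ighm and Igha differed by 0.17 and 0.21 (adjusted p = 0.666 and 0.587 from limma). Of the dendritic cell genes, Cd83, a maturation marker, rose by 1.29 (SE 0.19) and Ccl22, which attracts type 2 T cells, by 1.63 (SE 0.30), and the transcription factor Zbtb46 fell by 0.63 (SE 0.14). With 1 array left out, 2 to 12 T cell genes were called, the fewest without OVA 3 or Control 2.

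Some genes of matrix turnover rose. Of 12 matrix metalloproteinases and inhibitors 5 were higher. Mmp12, the elastase of macrophages, went from 6.10, 5.98 and 6.46 to 12.94, 12.81 and 12.71 (difference 6.64, SE 0.14, adjusted p = 1.08e-04 from limma), with far less spread than Timp1. Timp1, an inhibitor of these enzymes, went from 3.95, 4.51 and 4.54 to 10.59, 7.48 and 9.16, at least 17.7-fold higher (difference 4.74, SE 0.74, adjusted p = 0.0165 from limma). The collagenase Mmp13 was at least 2.58-fold higher, and Mmp14, a protease of cell membranes, rose by 1.18 (SE 0.28). Timp2 and Timp3 differed by -0.49 and -0.56 (adjusted p = 0.0621 and 0.0786 from limma). Timp1 varied over the arrays labelled OVA by more than 3, with OVA 2 lowest.

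Of 17 collagen and matrix genes 4 were higher and 0 lower, with a median of 0.13. Col1a1, a chain of fibrillar collagen, went from 10.67, 10.13 and 10.39 to 12.19, 11.63 and 12.03 (difference 1.56, SE 0.20, adjusted p = 0.0112 from limma). Col3a1 and Col1a2 rose by 1.19 (SE 0.19) and 0.72 (SE 0.14), and tenascin Tnc, a matrix protein of repairing tissue, by 1.55 (SE 0.34). The basement membrane collagens Col4a1 and Col4a2 and fibronectin Fn1 differed by -0.13, -0.18 and 0.05 (adjusted p = 0.593, 0.368 and 0.648 from limma). Without OVA 3, 0 of these genes were called, without OVA 1 or Control 2 1, and without the others 3 or 4.

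**Figure D5:**
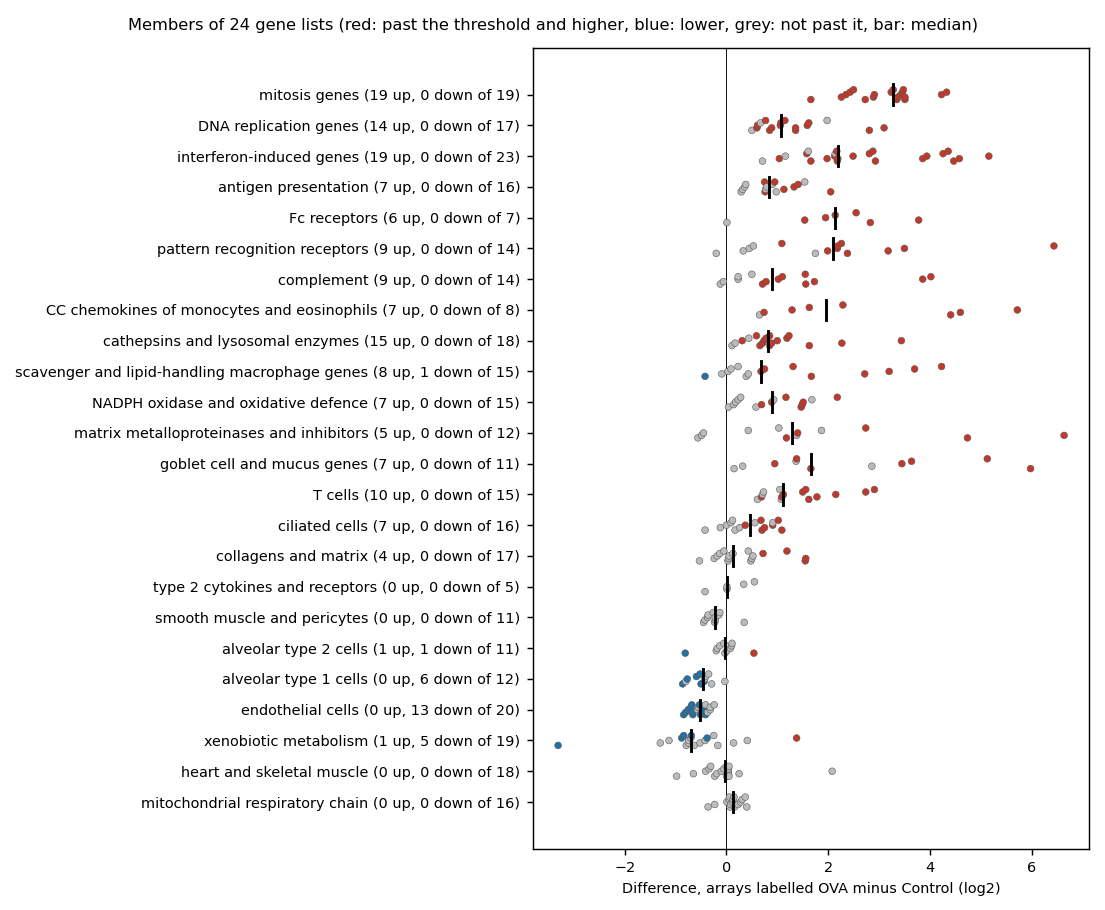
Each point is 1 member of a gene list, placed by the log2 difference of the arrays labelled OVA minus Control, with red for called higher, blue for called lower, grey for not called and a bar at the list's median. Immune and cell division lists lie to the right of 0, all 20 endothelial genes lie to its left, and muscle and mitochondrial genes lie around it.

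Genes of the alveolar wall were lower by small steps. All 20 endothelial genes tested had a negative difference, and 13 were called lower (7.63% of all genes tested were), with a median of -0.52. Tie1, a receptor of the angiopoietin system, was at 11.81, 12.01 and 11.84 in Control and at 11.05, 11.33 and 10.88 in the arrays labelled OVA (difference -0.80, SE 0.14, adjusted p = 0.0191 from limma). Its partner Tek, which binds angiopoietins, went from 13.59, 13.52 and 13.45 to 12.61, 13.05 and 12.64 (difference -0.75, SE 0.14, adjusted p = 0.0218 from limma). Eng, a co-receptor for BMP ligands, fell by 0.66 (SE 0.10) and the adhesion protein Pecam1 by 0.51 (SE 0.11). Kdr, the main receptor for Vegfa, differed by -0.41 (adjusted p = 0.0845 from limma). The mean over the list was 12.06, 12.04 and 12.02 in Control 1 to 3 and 11.46, 11.69 and 11.37 in OVA 1 to 3, without overlap. Over the same arrays the mean of the monocyte and macrophage list was higher, as given above, and the part of that change in the endothelial values was not tested. The calls were fragile, at 14 without OVA 2, 3 without Control 3, 1 without Control 1 or Control 2 and 0 without OVA 1 or OVA 3. With no filter, 5 of 20 were called lower.

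BMP and Wnt genes went both ways. Bmp6 went from 11.50, 11.37 and 11.74 to 10.44, 10.80 and 10.24 (difference -1.04, SE 0.17, adjusted p = 0.0184 from limma), and Smad6, an inhibitor within the BMP pathway, and its receptor Bmpr2 fell by 0.85 (SE 0.17) and 0.43 (SE 0.09). The Wnt inhibitor Sfrp1 rose by 1.49 (SE 0.34). In this list of BMP and Wnt genes 3 of 19 were higher, Sfrp1, Id2 and Wnt5a, and 3 lower. Over all genes tested, 11.3% were called higher and 7.63% lower. Kit and Gata2, which are on the mast cell list and are also made by lung endothelium, fell by 0.78 (SE 0.13) and 0.83 (SE 0.14), while the mast cell proteases Cma1 and Cpa3 differed by -0.01 and -0.13 (adjusted p = 0.985 and 0.743 from limma).

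Of 12 genes of alveolar type 1 cells, the flat cells of gas exchange, 6 were lower and 0 higher, with a median of -0.47 and no positive difference. Vegfa, which these cells supply to capillaries, was at 13.15, 13.19 and 13.30 in Control and at 12.62, 12.67 and 12.57 in the arrays labelled OVA (difference -0.59, SE 0.08, adjusted p = 0.013 from limma). Igfbp2 and Rtkn2 fell by 0.86 (SE 0.15) and 0.77 (SE 0.12), and Hopx by 0.52 (SE 0.11). The defining marker Ager differed by -0.29 (adjusted p = 0.0793 from limma). Without OVA 3 or Control 2, 0 of these genes were called, and without OVA 2 11 were.

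Surfactant genes of alveolar type 2 cells did not follow. Sftpc, Sftpa1 and Sftpb differed by -0.05, 0.11 and -0.20 (adjusted p = 0.63, 0.377 and 0.102 from limma). Sftpd, a collectin that binds microbes, rose from 13.77, 13.72 and 13.55 to 14.30, 14.10 and 14.27 (difference 0.54, SE 0.10, adjusted p = 0.0223 from limma). Of 11 genes of these cells 1 was higher and 1 lower, Chia1, given above, and the list's mean ran from 13.53 to 13.65 over Control and from 13.52 to 13.62 over the arrays labelled OVA.

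Some cilia genes of airway epithelium rose. Of 16 ciliated cell genes 7 were higher and 0 lower, with a median of 0.46. Tekt4, a filament of the ciliary axoneme, went from 6.52, 7.22 and 6.97 to 8.24, 7.88 and 7.88 (difference 1.09, SE 0.20, adjusted p = 0.023 from limma). Dnali1 and Ccdc39, parts of the dynein arms and their ruler, rose by 1.02 (SE 0.17) and 0.70 (SE 0.09), while Foxj1, the regulator that starts this programme, differed by 0.91 (adjusted p = 0.0637 from limma). Of the epithelial channels, the sodium channel subunits Scnn1b and Scnn1g fell by 0.59 (SE 0.08) and 0.68 (SE 0.11), and the water channel Aqp4 rose from 6.93, 6.90 and 6.47 to 9.0, 8.06 and 8.5 (difference 1.76, SE 0.26, adjusted p = 0.015 from limma). The third sodium channel subunit, Scnn1a, differed by -0.35 (adjusted p = 0.177 from limma). Without OVA 3, 0 cilia genes were called.

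Of 19 enzymes that handle foreign compounds 5 were lower, 1 higher and 13 did not pass, with a median of -0.69. Cyp4b1, a lung P450, went from 14.63, 14.59 and 14.54 to 13.57, 14.08 and 13.58 (difference -0.84, SE 0.15, adjusted p = 0.0215 from limma), and the flavin monooxygenase Fmo1 fell by 0.88 (SE 0.19). Cyp2f2 of club cells fell by 0.38 (SE 0.10) and Gstm1, a glutathione transferase, by 0.69 (SE 0.17). Cyp1b1 was the member that rose, by 1.38 (SE 0.26), while Cyp1a1, another target of the aryl hydrocarbon receptor, differed by -1.30 (adjusted p = 0.0943 from limma). With OVA 1, OVA 3, Control 1 or Control 2 left out, 0 enzymes were called lower.

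Among the other genes with the largest falls were regulators and receptors with little spread. Nr4a2, an orphan nuclear receptor, was at 9.40, 9.74 and 9.18 in Control and at 7.74, 7.92 and 8.08 in the arrays labelled OVA (difference -1.53, SE 0.17, adjusted p = 0.00871 from limma). Igfbp3, a carrier of insulin-like growth factors, went from 11.79, 12.04 and 12.55 to 10.75, 10.59 and 10.33 (difference -1.57, SE 0.22, adjusted p = 0.0136 from limma). Npr3, the clearance receptor for natriuretic peptides, went from 12.21, 11.89 and 11.63 to 10.50, 10.45 and 10.85 (difference -1.31, SE 0.18, adjusted p = 0.0138 from limma). The groups were separate in each, and both Nr4a2 and Igfbp3 were also lower than in the arrays labelled PM, by fitted differences of -1.35 (SE 0.12) and -1.32 (SE 0.17). Nr4a2 and Sgip1, an adaptor of endocytosis that fell by 1.40 (SE 0.14), were called with each array left out.

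Further falls concerned transport, matrix and mechanical sensing. Slc38a4, an amino acid transporter, went from 8.01, 7.02 and 6.97 to 5.5, 5.94 and 5.69 (difference -1.63, SE 0.30, adjusted p = 0.0226 from limma). The tenascin Tnxb fell by 1.30 (SE 0.24) and the stretch-gated channel Piezo2 by 1.36 (SE 0.27). Klf15, a transcription factor that responds to glucocorticoids, went from 11.51, 11.10 and 10.70 to 9.09, 10.35 and 9.60 (difference -1.42, SE 0.36, adjusted p = 0.0423 from limma), and was called in 1 of the 6 fits that left out an array. The transcripts A330023F24Rik and B230216N24Rik, for which the annotation gives no other name, fell by 1.41 and 1.44.

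Several tissues and pathways gave no call. Of 16 genes of the mitochondrial respiratory chain, 11 of smooth muscle and pericytes, 18 of heart and skeletal muscle and 7 of adipose tissue, 0 passed in either direction with limma, and 3, 3, 0 and 0 had an unadjusted p under 0.05. Their median differences were 0.12, -0.23, -0.03 and 0.18. The muscle list's mean nevertheless ran from 11.07 to 11.89 over Control and from 10.48 to 12.00 over the arrays labelled OVA, with OVA 1 lowest. Of 12 genes of fibroblasts and mesothelium 2 were lower, Limch1 and Gpc3, and of 11 genes of cytokine signalling feedback 0 passed with limma (5 at an unadjusted p under 0.05), with Socs3 at 1.03 (adjusted p = 0.101). A p above the threshold does not show that levels were alike. In simulated data, 100 of 22498 probe sets were changed by 1 (log2) and 100 by 2, and 67% and 88% of these were called. Far fewer probe sets changed there than were called here, so these shares need not hold for this comparison.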

How the data were processed

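Whole lung RNA was hybridised to 1-colour arrays of 45101 probe sets. The authors deposited 1 table of log2 values made with GCRMA, which corrects background by probe sequence, quantile-normalizes and summarises each probe set. The submitters' processing notes also name MAS5, and versions are not given in the sources used here. Since GCRMA shrinks weak signals towards a floor, differences of dim genes are imprecise. Array medians ran from 4.84 to 5.03.

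Probe sets entered the test if every array of 1 or both groups reached 4.93, the median of all values, leaving out the array's own control probe sets. The limma package 3.58.1 (lmFit, eBayes, 2-sided, R 4.3.3) compared groups of 3 arrays and p-values were adjusted over all probe sets tested by the Benjamini-Hochberg method, with a threshold of 0.05. The values are expression on a log2 scale, and the number of arrays limits their precision. Of the probe sets, 34958 had 1 gene symbol, 932 several and 9211 none, and those with 1 were used by gene. A gene took its probe set with the highest mean over the 6 arrays, and no gene named has probe sets called in opposite directions. Where a group lay wholly under 4.93, folds were taken against that level and given as at least that size. The script was tested on simulated data.

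Genes were named from the 15 largest rises and falls, up to 6 called members per gene list and direction, and members that define a list, and not each of these is described. Other members named were chosen after their values were seen. The members and lists were chosen with earlier results of these data known. Promoters are RefSeq sequences (GRCm38.p6), searched on both strands. Alternatives changed the filter, an offset of 16, normalization, the replicate block, array weights, the samples fitted, the test (SAM with all 20 relabelings), the probe set of a gene, the names OVA and PM, and each array in turn.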

Additional observations from a re-analysis of the deposited data

How the results depend on the processing

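Of 253 named genes called, all kept their sign and 17 their call in each of the 13 alternatives run gene by gene that tested them (all but SAM, the filter on group means, the lowest-p probe set and the exchange of names), among them Ctsk, Gpnmb, Retnla, Itln1, Tff2, Top2a, Mki67 and Cdk1. With OVA and PM exchanged 41 of the 253 had the opposite sign, Gpnmb and Il1rn among them. Array weights kept 252 calls, the offset of 16 and all 12 arrays in 1 fit 251 each, further quantile normalization 250, the 75th percentile filter 169 of the 169 it tested, no filter 145, and leaving out an array between 55 (OVA 3) and 240 (OVA 2). S100a8 and S100a9, not called, ran from -1.7 to 0.05 and from -2.02 to 0.03 with an array left out, the positive values without OVA 2. The 4326 probe sets became 2432 with no filter, 9978 with array weights (which put most weight on Control 2), 11036 with SAM, 16 with OVA and PM exchanged, and 407 to 5284 with an array left out. The 578 genes past 2-fold became 356 with no filter, 286 with the 75th percentile filter, which tests fewer genes, 11 with that exchange, and 145 to 855 with an array left out. For the arrays labelled OVA against PM, 1165 probe sets became 4 with no filter, 1935 with the 75th percentile filter, 3295 with all 12 arrays in 1 fit, 4790 with array weights, 6259 with SAM, and 4 to 3587 with an array left out. The share called higher there, 62.3%, became 47.1%, 48.7%, 42.7% and 45.9% under the 75th percentile filter, the fit of all arrays, weights and SAM. Counts in gene lists also depended on the filter. With no filter, 12 of 18 lysosomal genes, 12 of 20 DNA replication genes and 5 of 16 ciliated cell genes were called higher. Called lower were 4 of 12 alveolar type 1 genes and 1 of 20 enzymes that handle foreign compounds. Where no cause is given, it was not tested.

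The labels give the arrays of each group the numbers 1 to 3, and with the number as a replicate block 89 probe sets, 51 genes past 2-fold and 711 probe sets of OVA against PM were called, and 21 of the named calls were kept. Deviations of arrays with the same number correlated at -0.34, 0.07 and -0.18, and 0 arrays correlated best with their own number. With 3 arrays in a group, these values cannot show whether arrays of the same number were handled together. The labels name nothing that they share beyond the number.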

Other observations

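Some genes outside the comparisons above varied between single arrays. Krt4 and Krt13, keratins of stratified epithelium such as that of the oesophagus, were at 13.94, 12.84 and 3.32 and at 13.19, 12.01 and 2.34 (log2) in Control 1 to 3, and at 12.50, 13.34 and 13.58 and at 11.83, 12.58 and 12.90 in OVA 1 to 3. Control 3 alone lay at the floor in both genes. The circadian clock genes Per2 and Hlf were low in Control 3 and OVA 1, with Per2 at 10.15, 9.95 and 6.89 in Control and 7.49, 9.32 and 8.99 in the arrays labelled OVA. Ucp1, the uncoupling protein of brown fat, was at 8.63, 10.95 and 7.89 against 8.54, 12.09 and 12.87, and Nppa, a natriuretic peptide of atrial muscle, at 8.94, 12.55 and 11.26 against 11.33, 13.08 and 14.59. The groups overlapped in each of these genes.

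Further cytokine genes under the filter level had the shape of Tnf and Ccl2. Ccl4 was at 8.68, 3.14 and 6.85 in OVA 1 to 3 and at 1.99, 2.09 and 2.25 in Control, and Ccl7 at 6.65, 3.14 and 5.55 against 2.82 to 2.97. Il17a, the cytokine of type 17 T cells, was at 5.38, 2.79 and 3.82 against 2.60 to 2.79. Cd4, the co-receptor of helper T cells, was at 4.70, 5.68 and 4.85 against 2.60, 2.56 and 3.43, with OVA 2 highest. Unlike these genes, Ccl11, the eotaxin that draws eosinophils, lay above the filter level in each of the 6 arrays. It was at 7.82, 8.20 and 8.81 against 8.03, 7.74 and 7.11, and the groups overlapped. Ccl24, another eotaxin, lay between 1.98 and 2.02 in each of the 6 arrays.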
